A study of Mus musculus with 12 samples.

Results

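The ISG15 conjugation pathway was followed through 6 genes, Isg15, Uba7, Ube2l6, Herc6, Trim25 and Usp18, of the 24454 genes listed for MLL-AF9 blasts. The genes were picked by name, and the pathway was selected because Ube2l6 had already been seen to be higher in STAT3β-deficient blasts of these same libraries. All 6 genes were among the 11476 with a mean of at least 10 normalized counts, the genes that were tested. The question was whether Ube2l6 moves with the rest of its pathway across genotype and organ.

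The blasts were fetal liver cells of wildtype (WT) or STAT3β-deficient (Δβ) mice that had been transformed with a retrovirus carrying the MLL-AF9 fusion oncogene and a Venus reporter. Blasts of both genotypes therefore carried MLL-AF9, and both were grown in male immunocompromised NSG mice, which have no mature lymphocytes of their own. Venus+ cells were sorted from the spleen (SP) and bone marrow (BM) of diseased recipients, and poly-A RNA was sequenced from 3 replicates in each of the 4 groups, WT SP, Δβ SP, WT BM and Δβ BM. The labels do not say which replicates came from separate transformations or recipients, so a p-value measures only the spread between these 12 libraries. Values are per gene, so the missing β isoform of Stat3 could not be checked in them.

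ISG15 is a small protein resembling a pair of ubiquitin units that is attached to other proteins after interferon stimulation. The E1 enzyme UBA7 activates it, the E2 enzyme UBE2L6 carries it, and an E3 ligase passes it on, a role taken in mice mainly by HERC6, while USP18 removes it again and also restrains the type I interferon receptor. Genes of this pathway are usually induced together by interferon, through a paired GAAA box known as the interferon-stimulated response element.

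The start regions of the E2 gene and of the modifier gene are shown because they differ in the letters of that element. The letters GAAANNGAAA were searched on both strands from 250 bases before to 50 bases after the start in 32851 RefSeq promoters (assembly GRCm38.p6). They were present in 3.44% of all promoters and in 27 of 55 promoters (49.1%) of a list of other interferon-stimulated genes. Of the 5 pathway genes in that table, Isg15 held the letters, in 3 overlapping matches between bases -78 and -57, and Ube2l6, Uba7, Herc6 and Trim25 held none. The 120 bases before each start are printed 5′ to 3′, and the capitals mark the matches, from chr2:84798708-84798827 on the plus strand for Ube2l6 and chr4:156200819-156200938 on the minus strand for Isg15.
Ube2l6: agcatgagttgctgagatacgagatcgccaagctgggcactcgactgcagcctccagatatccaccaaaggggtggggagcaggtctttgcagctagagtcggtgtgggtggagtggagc
Isg15: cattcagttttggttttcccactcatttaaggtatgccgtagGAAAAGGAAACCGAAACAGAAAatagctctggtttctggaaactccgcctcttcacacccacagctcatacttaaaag
A match is a description of letters and not a bound site. The absence of one holds for this window and these exact letters alone, since a copy with 1 changed base is not counted. Usp18 was not among the promoters searched. The letters TTCNNNGAA, the core of the gamma-activated sequence, were found in 8.30% of all promoters, in 9 of 55 (16.4%) of the other interferon-stimulated genes and in 0 of these 5 genes.

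Each library held 9001051 to 13859727 reads on genes, and 1 read was worth 0.775 to 1.17 normalized counts. The blast identity was checked on marker genes: all 11 blast markers were tested, and their summed level lay between 66206 and 193607 normalized counts, with the highest sum in WT SP replicate 3. The hemoglobin genes Hbb-bs, Hbb-bt, Hba-a1 and Hba-a2 had 0 reads in all libraries. Of 12 macrophage markers, 4 passed the filter, and the sum over the list ran in SP from 3852 to 5781 for WT and from 3575 to 5137 for Δβ libraries. In BM the sum was 6528 to 9201 for WT and 4732 to 6103 for Δβ, without overlap. A sum does not stand for its whole list. Of the 4 tested macrophage markers in BM, 2 were higher in Δβ and 2 lower, with log2 fold changes from -1.36 to 0.28. Of 8 stromal markers, 1 passed, and the SP sum was 1055 to 1202 for WT and 1406 to 2525 for Δβ, without overlap. The BM sum was 796 to 1290 for WT and 1181 to 1879 for Δβ. The sums of the lymphoid, megakaryocyte and erythroid lists, of which 2 of 8, 3 of 6 and 0 of 9 genes passed, also separated the genotypes in SP and overlapped in BM. The lymphoid sum in SP was 296 to 406 for WT against 418 to 526 for Δβ, the megakaryocyte sum was 68.9 to 85.5 against 44.8 to 59.8, and the erythroid sum was 13.8 to 17.3 against 5.43 to 12.3. The 2 tested lymphoid markers went opposite ways in SP, with log2 fold changes of -1.18 and 0.42, while the 3 megakaryocyte markers were lower in Δβ. The dendritic sum, with 5 of 9 genes passed, overlapped in both organs. The part of these other cell types in the results was not tested, and in bulk libraries fewer cells of a type and less RNA per cell cannot be told apart. WT SP replicate 3 stood apart, since leaving it out changed the number of genes called in SP from 12 to 1884.

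Isg15 (NM_015783, Entrez gene 100038882, minus strand of chromosome 4 from 156199424 to 156200818), the modifier itself, was a weakly expressed gene. Normalized counts of replicates 1, 2 and 3 were 46.7, 32.9 and 16.2 for WT SP against 45.0, 80.7 and 28.8 for Δβ SP, and values are listed in this replicate order throughout. In BM it had 16.9, 6.76 and 13.1 in WT and 26.1, 64.2 and 8.29 in Δβ. The genotypes overlapped in both organs, and Δβ BM replicate 3 was lower than 2 of the 3 WT BM libraries. Set against WT, the Δβ log2 fold change came to 0.67 (SE 0.69) in SP and 1.02 (SE 0.69) in BM. With each library left out in turn, it ran from 0.26 to 1.01 in SP and from 0.34 to 1.75 in BM.

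Uba7 (NM_023738, Entrez gene 74153, plus strand of chromosome 9 from 107975567 to 107984056), the E1 enzyme, was read at a far higher level. WT SP libraries held 1050, 1120 and 1128 normalized counts, and Δβ SP libraries 1439, 1458 and 1133. In BM it had 877, 911 and 871 in WT and 1445, 1225 and 851 in Δβ. The SP groups did not overlap, although the lowest Δβ library exceeded the highest WT library by a ratio of only 1.004, and the BM groups overlapped through Δβ replicate 3. The log2 fold change was 0.28 (SE 0.17) in SP and 0.37 (SE 0.17) in BM. The annotated gene Gm20661 overlaps Uba7 on the same strand, so reads of the 2 genes may not be separable.

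Ube2l6 (NM_019949, Entrez gene 56791, plus strand of chromosome 2 from 84798828 to 84810003), the E2 enzyme, separated the genotypes in both organs. WT SP libraries held 69.5, 82.7 and 62.9 normalized counts, and Δβ SP libraries 391, 377 and 330. In BM it had 43.7, 13.5 and 44.3 in WT and 544, 398 and 268 in Δβ. The lowest Δβ library was 3.99 times the highest WT library in SP and 6.05 times in BM. The log2 fold change was 2.34 (SE 0.40) in SP and 3.65 (SE 0.40) in BM, which placed Ube2l6 at rank 55 of 11476 genes in SP and rank 14 in BM. These values chose the gene, and they are given as a description.

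Herc6 (NM_025992, Entrez gene 67138, plus strand of chromosome 6 from 57580992 to 57665136), the main mouse E3 ligase for ISG15, had 203, 232 and 291 normalized counts in WT SP and 349, 423 and 236 in Δβ SP. In BM it had 210, 216 and 217 in WT and 342, 339 and 254 in Δβ. The BM groups did not overlap, with the lowest Δβ library at 1.17 times the highest WT library, and the SP groups overlapped through Δβ replicate 3. The log2 fold change was 0.45 (SE 0.22) in SP and 0.52 (SE 0.22) in BM. Herc6 is overlapped by the annotated genes Gm45193 on its own strand and Gm19244 on the other.

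Trim25 (NM_009546, Entrez gene 217069, plus strand of chromosome 11 from 88999403 to 89020294), an E3 ligase that also acts with the RNA sensor RIG-I, showed no common direction. WT SP libraries held 1532, 1141 and 704 normalized counts, and Δβ SP libraries 1133, 845 and 784. In BM it had 901, 871 and 840 in WT and 1194, 906 and 786 in Δβ. The genotypes overlapped in both organs, and the log2 fold change was -0.24 (SE 0.26) in SP and 0.12 (SE 0.26) in BM.

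Usp18 (NM_011909, Entrez gene 24110, plus strand of chromosome 6 from 121245906 to 121270917), the ISG15 protease, was as sparse as Isg15. WT SP libraries held 36.5, 35.0 and 11.2 normalized counts, and Δβ SP libraries 48.1, 51.5 and 27.8. In BM it had 33.7, 4.51 and 12.1 in WT and 48.9, 51.4 and 11.4 in Δβ. Δβ replicate 3 lay inside the WT range in both organs, and the log2 fold change was 0.73 (SE 0.76) in SP and 1.23 (SE 0.76) in BM. It ran from 0.19 to 1.01 and from 0.58 to 1.91 when a library was left out. Gm44148 overlaps Usp18 on the other strand.

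**Figure D1:**
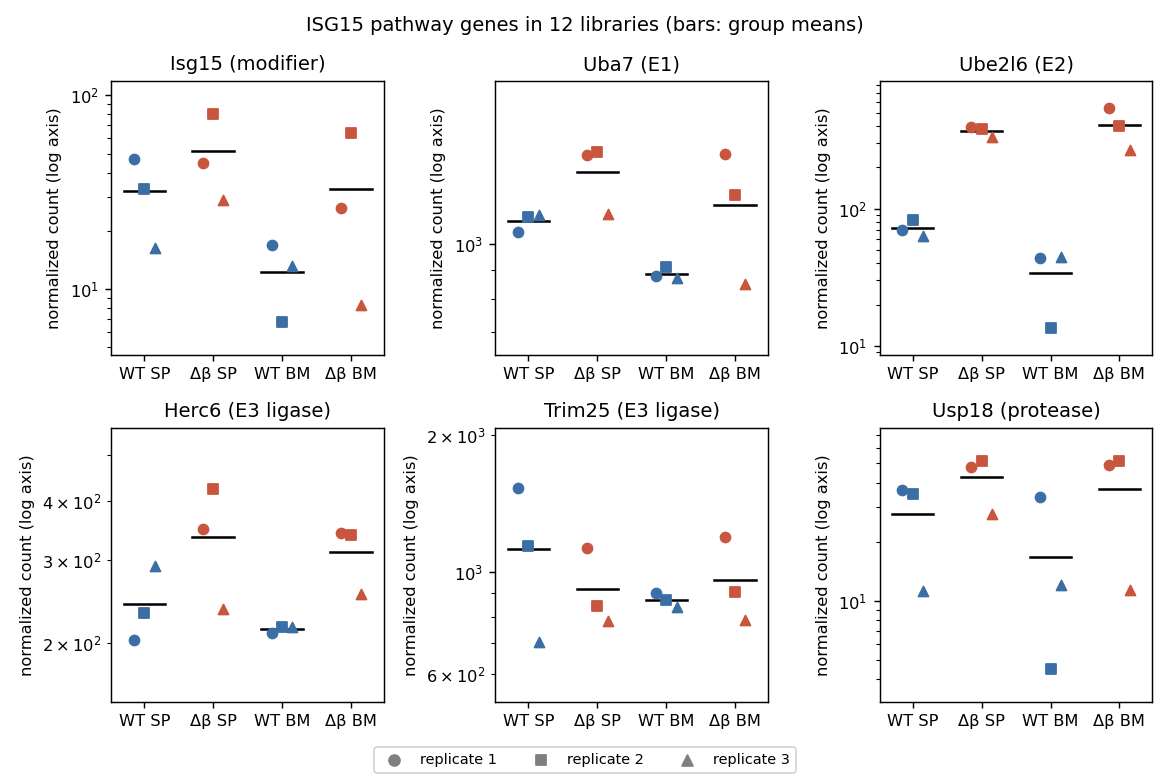
Normalized counts (log axis) of the 6 pathway genes in WT SP, Δβ SP, WT BM and Δβ BM, 1 point per library with its shape giving the replicate number and a bar at the group mean. Ube2l6 separates WT from Δβ in both organs, at 13.5 to 82.7 against 268 to 544, while Δβ BM replicate 3 lies within or below the WT BM range for Isg15, Uba7, Trim25 and Usp18.

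Levels of different genes were compared as normalized counts per kb of the listed transcript. In WT SP the level per kb was 344 ± 13.6 for Uba7, 201 ± 74.0 for Trim25, 50.8 ± 9.45 for Herc6, 46.0 ± 6.44 for Ube2l6, 42.2 ± 20.2 for Isg15 and 15.5 ± 8.02 for Usp18 (SD, n = 3). The middle 3 genes of that order, Herc6, Ube2l6 and Isg15, lay within each other's spread. In Δβ SP the level per kb was 420 ± 57.2 for Uba7 and 235 ± 20.5 for Ube2l6, with Trim25 now below it at 165 ± 33.4, and with Herc6 at 70.5 ± 19.8, Isg15 at 68.1 ± 35.1 and Usp18 at 24.0 ± 7.25. In WT BM Ube2l6 stood at 21.7 ± 11.3 per kb, beside Isg15 at 16.2 ± 6.76 and Usp18 at 9.47 ± 8.57, and below Herc6 at 45.0 ± 0.734. In Δβ BM it stood at 259 ± 88.3 per kb, between Uba7 at 367 ± 93.9 and Trim25 at 172 ± 37.5, and these neighbours lay within their spreads. Ube2l6 was thus among the 4 low genes of the pathway in WT and second to Uba7 in Δβ, as a description of a gene selected on this contrast.

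The genotype comparison was the one that the pathway was chosen by, so the calls are listed beside the background and nothing is read from them. In SP limma with Benjamini-Hochberg adjustment called 12 genes (0.105%) at an adjusted p under 0.05 and 0 of the 6 pathway genes. In BM it called 8 genes (0.0697%), of which Ube2l6 was the 1 pathway gene. All Δβ libraries lay above all WT libraries for 7.92% of the tested genes in SP and for 2 of the 6 pathway genes, Uba7 and Ube2l6. The share in BM was 3.5%, and the pathway genes were Ube2l6 and Herc6. Separation in both organs was found for 0.863% of the tested genes, and separation of all 6 Δβ from all 6 WT libraries for 0.479%, and Ube2l6 was the 1 pathway gene in either count. The median log2 fold change of the 6 genes was 0.56 in SP and 0.77 in BM, beside -0.014 and -0.020 over all tested genes.

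**Figure D2:**
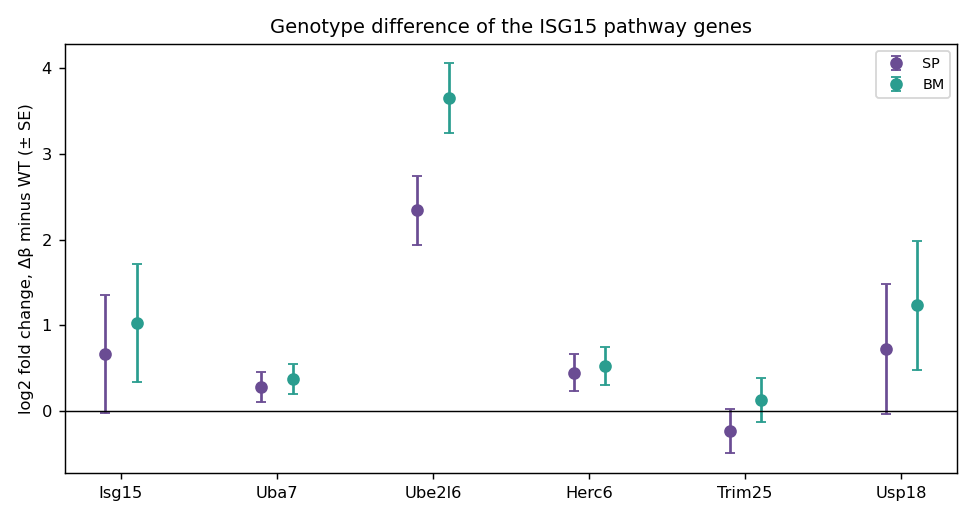
Log2 fold change of Δβ against WT with its standard error for each pathway gene, in SP and in BM. Ube2l6 stands at 2.34 and 3.65, and the other 5 genes lie between -0.24 and 1.23.

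The distance of Ube2l6 from the rest of the pathway was measured within each library, as the log2 level of Ube2l6 minus the mean log2 level of the other 5 genes. This difference was -1.68, -1.29 and -1.10 in WT SP, and 0.57, 0.36 and 0.89 in Δβ SP. In BM it was -1.84, -2.70 and -1.45 in WT, and 1.18, 0.59 and 1.23 in Δβ. The genotype means differed by 1.96 in SP and 3.00 in BM on the log2 scale. These gaps restate the contrast that Ube2l6 was selected on, less the mean of the other genes, and are a description. Δβ replicate 3 had the highest Δβ value of this measure in both organs.

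Δβ replicate 3 is described in more detail because its values differed from those of the other Δβ libraries, and its ratios to WT belong to the contrast that Ube2l6 was chosen by. In BM this library had 0.183 times the mean of Δβ replicates 1 and 2 for Isg15, 0.227 times for Usp18, 0.570 times for Ube2l6, 0.638 times for Uba7, 0.745 times for Herc6 and 0.749 times for Trim25. Against the WT BM mean the same library stood at 0.677 for Isg15, 0.679 for Usp18, 0.960 for Uba7, 0.903 for Trim25 and 1.18 for Herc6, but at 7.93 for Ube2l6. In Δβ SP replicate 3 the ratio to the WT SP mean was 0.902 for Isg15, 1.01 for Usp18, 1.03 for Uba7, 0.975 for Herc6, 0.696 for Trim25 and 4.60 for Ube2l6. Herc6 in the BM library, at 254 normalized counts, lay above all 3 WT BM libraries (210 to 217), as Ube2l6 did, and the other 4 genes did not.

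The same library was low for interferon-stimulated genes outside the pathway. The mean of 54 other interferon-stimulated genes, centred on the 12 libraries on the log2 scale, was 0.09, -0.09 and -0.44 in WT SP and 0.83, 0.96 and 0.15 in Δβ SP. In BM it was -0.40, -0.58 and -0.76 in WT and 0.61, 0.57 and -0.94 in Δβ, so that Δβ BM replicate 3 was the lowest of all 12 libraries. Ube2l6, centred in the same way, was 1.01 in that library, and its highest WT value was -0.67. Isg15 was -1.49 there and Usp18 was -1.07.

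The other interferon-stimulated genes were set against WT in the same library. In Δβ BM replicate 3, 10 of the 54 genes (18.5%) exceeded the highest WT BM library, beside 26% of all tested genes, and 25 (46.3%) lay below the lowest one, beside 29%. The largest ratio to the highest WT BM library was 1.85, for the guanylate-binding protein gene Gbp2 with 28.0 against 15.1 normalized counts, whereas that ratio was 6.05 for Ube2l6. In Δβ SP replicate 3 the ratio to the highest WT SP library was 2.37 for Gbp2 and 3.998 for Gbp4, a related gene with 20.3 normalized counts there, beside 3.99 for Ube2l6. All 6 Δβ libraries lay above all 6 WT libraries for 1 of the 54 genes, the immunoproteasome subunit gene Psmb8, which was singled out after its values were seen.

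**Figure D3:**
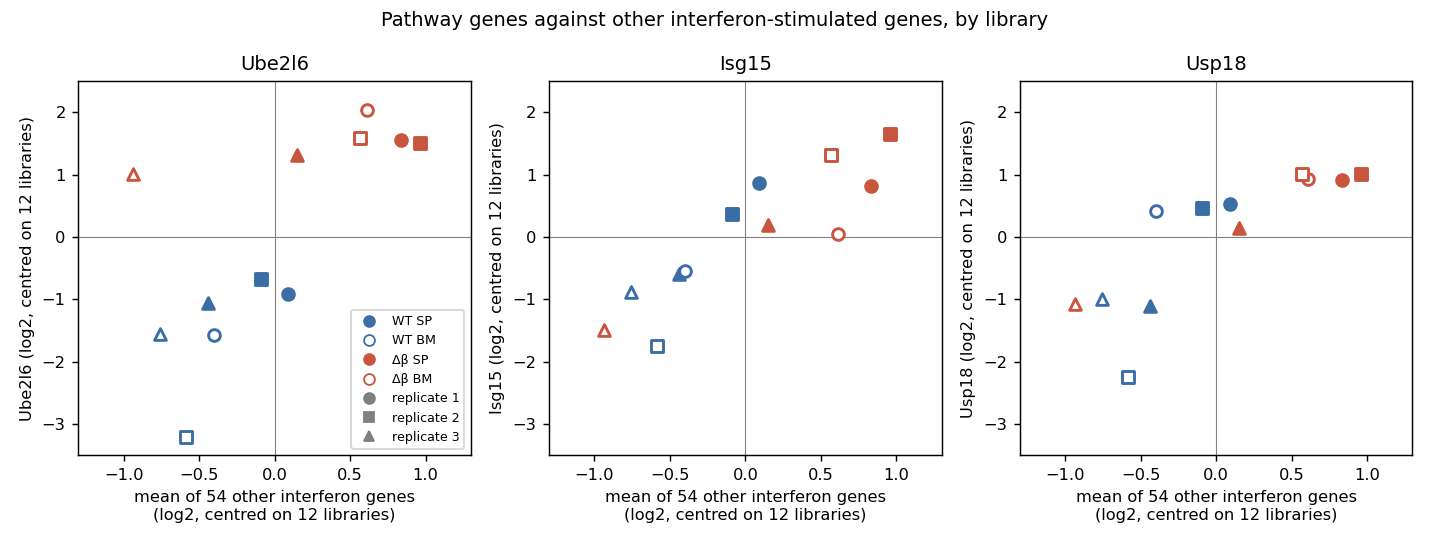
Level of Ube2l6, Isg15 and Usp18 (vertical, log2, centred on the 12 libraries) against the mean of 54 other interferon-stimulated genes in the same library (horizontal, log2, centred). In Δβ BM replicate 3, whose horizontal value is the lowest at -0.94, Isg15 is at -1.49, Usp18 at -1.07 and Ube2l6 at 1.01. Ube2l6, which was chosen by the genotype contrast, lies between -3.20 and -0.67 in the WT libraries.

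Likeness between genes was then taken from the deviations of the 12 libraries from their group means, which removes the genotype and organ means. It is a description, since SP and BM libraries of one number may share a mouse. Isg15 and Usp18 deviated together, with Pearson's r = 0.85 (Spearman's rho = 0.79), and Usp18 was rank 44 of 11475 genes in likeness to Isg15. Usp18 was also the pathway gene most like Ube2l6, with r = 0.79 (rho = 0.66) and rank 116. The r with Ube2l6 was 0.56 (rho = 0.52, rank 852) for Isg15, 0.39 (rho = 0.24, rank 2039) for Uba7, 0.30 (rho = 0.48, rank 2824) for Trim25 and 0.20 (rho = 0.22, rank 3816) for Herc6, beside a median of 0.015 over all tested genes. Uba7 and Herc6 formed another like pair, with r = 0.76 (rho = 0.85).

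Within genotypes Ube2l6 therefore varied partly along with Usp18 and Isg15, although its genotype difference was far larger than theirs. Of the 54 other interferon-stimulated genes, 50 had a higher r with Isg15 than with Ube2l6. Their median r was 0.64 with Isg15 and 0.34 with Ube2l6. The correlations among the pathway genes leaned on single libraries. The r of Uba7 with Ube2l6 was 0.082 without Δβ BM replicate 3 and 0.89 without WT BM replicate 2, whereas that of Usp18 stayed between 0.74 and 0.89 with each library left out in turn. WT BM replicate 2 had the lowest value of Isg15, Ube2l6 and Usp18 alike, with 6, 12 and 4 reads. The 5 tested genes most like Ube2l6 in this measure were Pigf with r = 0.96, Itih5 with 0.95, Ces1d with 0.94, 5930403L14Rik with 0.93 and Lrg1 with 0.92. Their own log2 fold changes of Δβ against WT ran from -2.37 to -0.15 in SP and from -0.44 to 0.31 in BM. For Isg15 the 5 most like genes were AW011738 with r = 0.95, Tmem33 with 0.94, Cnih4 with 0.94, Syvn1 with 0.94 and Psma7 with 0.93.

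The organ comparison did not enter the choice of the genes and was tested. In WT blasts Ube2l6 was at 71.7 ± 10.1 normalized counts in SP and 33.8 ± 17.6 in BM (SD, n = 3), and the groups did not overlap. Its log2 fold change of SP against BM was 1.23 (SE 0.40), with an unadjusted p of 0.0113 and an adjusted p of 0.580 from limma, so the difference did not pass the test over all genes. Without WT BM replicate 2 the log2 fold change was 0.68. Isg15 had 1.28 (SE 0.69, adjusted p = 0.638 from limma), Usp18 0.90 (SE 0.76, adjusted p = 0.732), Uba7 0.31 (SE 0.17, adjusted p = 0.647), Trim25 0.30 (SE 0.26, adjusted p = 0.739) and Herc6 0.16 (SE 0.22, adjusted p = 0.842). All 6 values were above 0, beside 5737 of the 11476 tested genes. The 6 signs are not independent, since Isg15 varied with Usp18 and Uba7 with Herc6. All SP libraries lay above all BM libraries for Uba7 and Ube2l6, beside 5.66% of the tested genes. Limma called 0 genes (0%) in this comparison, with 949 at an unadjusted p under 0.05, while edgeR called 0 and DESeq2 called 111, none of them a pathway gene. Without WT SP replicate 3 limma called 598 genes. The median over the 54 other interferon-stimulated genes was 0.41, and 45 of them were higher in SP. The macrophage sum was 3852 to 5781 normalized counts in WT SP and 6528 to 9201 in WT BM. Its single markers were split: of the 4 tested, 2 were higher in WT SP and 2 lower, at -2.16 to 0.47 on the log2 scale. Whether macrophage content bears on the organ values of the pathway was not tested.

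In Δβ blasts the organ values of Ube2l6 were 366 ± 32.0 normalized counts in SP and 403 ± 138 in BM (SD, n = 3). Its log2 fold change of SP against BM was -0.09 (SE 0.40, adjusted p = 1.0 from limma), and the groups overlapped. Isg15 had 0.92 (SE 0.69), Usp18 0.40 (SE 0.76), Uba7 0.22 (SE 0.17), Herc6 0.08 (SE 0.22) and Trim25 -0.06 (SE 0.26), each with an adjusted p of 1.0 from limma. All SP libraries lay above all BM libraries for 2.92% of the tested genes and for 0 of the 6 pathway genes. Limma called 0 genes (0%), with 203 at an unadjusted p under 0.05, edgeR called 0, and DESeq2 called 2, neither of them in the pathway.

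**Figure D4:**
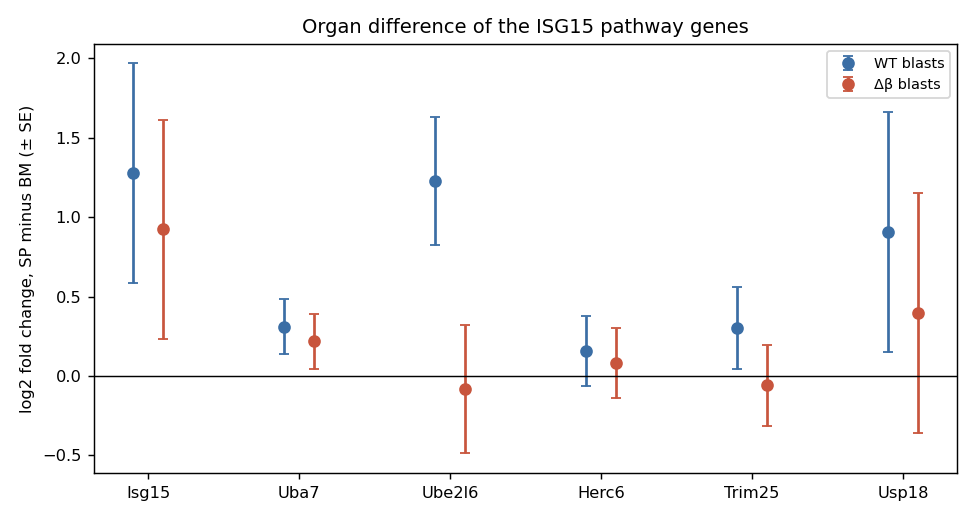
Log2 fold change of SP against BM with its standard error for each pathway gene, in WT and in Δβ blasts. Ube2l6 is at 1.23 in WT and -0.09 in Δβ blasts, and none of the 12 values passed the adjusted test.

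The genotype effect of Ube2l6 was larger in BM than in SP as a point value, 3.65 against 2.34 on the log2 scale. These effects belong to the contrast that the gene was chosen by, so their difference and its p-values are a description. The difference of the effects, SP minus BM, was -1.31 (SE 0.57), with an unadjusted p of 0.0422 and an adjusted p of 0.926 from limma, so the organs were not shown to differ. For the other 5 genes it ran from -0.51 for Usp18 to -0.08 for Herc6, each within 1 standard error of 0. Limma called 0 genes (0%) for this difference, with 367 at an unadjusted p under 0.05, edgeR called 0, and DESeq2 called 3, none of them in the pathway. WT BM replicate 2, with 12 reads of Ube2l6, bore on this value, and without that library the difference was -0.77.

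The enzyme family of Ube2l6 was compared because related enzymes serve ubiquitin and other modifiers. Of 36 E2 genes tested, Ube2l6 in BM was the 1 called. It was chosen by this same genotype comparison, so its distance from the other 35 is a description. The other 35 had log2 fold changes of Δβ against WT from -0.37 (Ube2g2) to 0.42 (Ube2w) in SP and from -0.47 (Ube2t) to 0.27 (Atg10) in BM. Ube2l3, the closest relative of Ube2l6 and a ubiquitin E2, was at -0.07 in SP and 0.22 in BM. Uba1 and Uba6, the E1 enzymes that activate ubiquitin, were at 0.04 and 0.25 in SP and at 0.15 and -0.09 in BM. Of 10 E1 genes, 5 HERC genes and 18 genes of ubiquitin-like modifiers, 0 were called in either organ, and their medians lay between -0.13 and 0.08. Over all tested genes 0.105% were called in SP and 0.0697% in BM, so 0 calls are no result in lists of this size. Ubd, which encodes the other interferon-induced modifier FAT10, had 0 reads in all 12 libraries.

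**Figure D5:**
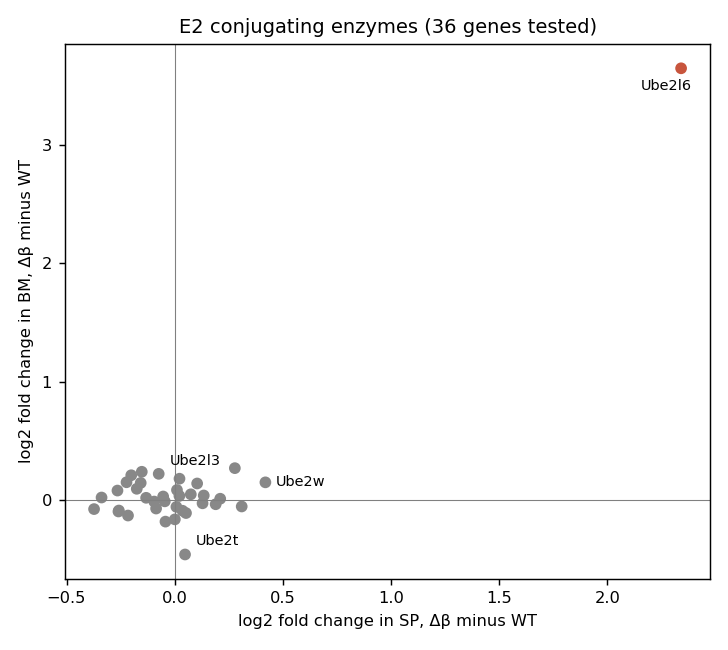
Log2 fold change of Δβ against WT in SP (horizontal) and in BM (vertical) for 36 tested genes of E2 conjugating enzymes, 1 point each. Ube2l6, which was chosen by this contrast, lies at 2.34 and 3.65, and the other 35 lie between -0.47 and 0.42 on both axes.

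The regulators and the targets of the pathway were described on lists of known members. Of 54 other interferon-stimulated genes, 45 had a higher mean log2 level in Δβ than in WT in SP and 48 in BM. Over all 11476 tested genes these counts were 5521 and 5199. The medians of the 54 were 0.47 in SP and 0.39 in BM, and 0 were called in either organ. Gbp2 and Gbp4 had larger log2 fold changes than Ube2l6 in both organs. Gbp2 was at 4.84 in SP and 4.76 in BM (SE 1.37 each), and Gbp4 at 3.80 and 3.93 (SE 1.17 each). Both separated the genotypes in both organs, but for Gbp4 in BM only by less than the value of 1 read. Δβ BM replicate 3 had 2.07 normalized counts of Gbp4, from 2 reads, and the highest WT BM library had 1.98. Gbp4 is still counted as separated in what follows. All Δβ libraries lay above all WT libraries for 17 of the 54 genes in SP (31.5%), for 9 in BM (16.7%) and for 7 in both (13.0%). The shares over all tested genes were 7.92%, 3.5% and 0.863%. Of 15 tested genes of interferon receptors and signalling, 0 were called, and the medians were 0.03 in SP and 0.10 in BM. Irf9 and Stat2, which encode factors that bind the response element, were at 0.52 and 0.35 in SP and at 0.61 and 0.14 in BM. Of 21 interferon genes listed, 0 passed the filter, 4 had any read, and the most in a library was 10 reads of Ifng. Of 16 tested genes whose proteins are known to be ISGylated, 0 were called, with medians of -0.05 and 0.06. With 0.105% of all tested genes called in SP and 0.0697% in BM, 0 calls in these lists are not read as a result.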

How the data were processed

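RNA of Venus-sorted MLL-AF9 blasts had been sequenced from poly-A enriched libraries. Samples were grouped by genotype and organ from their labels. The deposited signal is a read count per gene divided by 1 size factor per library, and 6 columns of cells that no label describes were left out. The submitters' processing notes name FastQC, STAR, featureCounts, DESeq2 and GRCm38 (mm10). All values (100%) were whole multiples of the value of 1 read within a tolerance of 0.001, and whole reads were recovered. Members and lists were chosen with earlier results of these data known.

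Genes averaging 10 or more over the 12 libraries were fitted with limma 3.58.1 in R 4.3.3 (trend, pseudocount 1, 4 group means), with Benjamini-Hochberg adjustment over 11476 genes. Fold changes are on the scale of log2(value + 1). The script was tested on simulated data. On the recovered reads edgeR 4.0.16 (quasi-likelihood) called 4 genes in SP and 8 in BM, and DESeq2 1.42.0 called 457 and 37. Named genes are the 6 members, up to 3 genes of each list with the largest absolute mean genotype fold change, the 5 most like Ube2l6 or Isg15, the neighbour with the largest fold change, and Ube2l3, Uba1, Uba6, Ubd, Stat2, Irf9, Irf7 and Cwc22, and 1 further gene of this rule is not reported here. Positions, promoters and lengths come from RefSeq on GRCm38.p6 and GENCODE M21. Counting limits cover counting error only.

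Deviations of equal numbers correlated at 0.61 to 0.66 between Δβ SP and Δβ BM, at -0.24 to -0.01 between WT SP and WT BM, and at -0.17 to 0.20 between genotypes, so the numbers were not taken as pairs between genotypes or in WT, and in Δβ blasts a replicate block left the organ comparison at 0 calls. Other pseudocounts, filters, scalings and fits, and each library left out, were tried.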

Additional observations from a re-analysis of the deposited data

How the results depend on the processing

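The direction of Ube2l6 in the genotype comparison was the same under all alternatives, with a log2 fold change of 2.25 to 2.45 in SP and 3.11 to 3.93 in BM when libraries were left out. Its distance from the other 5 genes then stayed between 1.80 and 2.09 in SP and between 2.65 and 3.27 in BM. In SP it also passed the adjusted test with a pseudocount of 4, in a fit of 2 groups only, with DESeq2 and without WT SP replicate 3 or WT BM replicate 2, and in BM it no longer passed in a fit of 2 groups only and without Δβ BM replicate 1 or 2.

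The 12 genes called in SP became 1 with a pseudocount of 0.25, 5 with no filter, 2 with a minimum mean of 50, 3 with TMM or without the trend, 4 with edgeR, 457 with DESeq2, 2 in a fit of 2 groups only and 1 to 1884 when a library was left out, the highest without WT SP replicate 3 and the lowest without Δβ SP replicate 3, with 2 to 7 without each replicate of either BM group, WT SP replicate 2 or Δβ SP replicate 1 or 2. The 8 called in BM became 5 without the trend, 37 with DESeq2, 3 with 2 groups only and 1 to 13 with a library left out, the highest without WT SP replicate 1, and 1 to 3 without Δβ BM replicate 1, 2 or 3 or WT BM replicate 1 or 2. DESeq2 called 3 genes for the difference of the effects and 111 and 2 for SP against BM in WT and Δβ blasts, and the WT count ran from 0 to 598 with a library left out, the highest without WT SP replicate 3. With a replicate block, a fit pairing libraries by number, 2 genes were called in SP and 5 in BM, and 0 in the other contrasts. Leaving out Δβ replicate 3 of both organs, an alternative chosen after seeing the data, gave 23 calls in SP and 26 in BM, a difference of the effects of 0.015 for Herc6 and a value of -0.011 for Usp18 in SP against BM of Δβ blasts.

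Small values changed sign when a library was left out. The difference of the effects ran from -1.08 to 0.33 for Isg15, -0.31 to 0.076 for Uba7, -0.26 to 0.16 for Herc6 and -1.19 to 0.14 for Usp18. SP against BM in Δβ blasts ran from -0.35 to 0.16 for Ube2l6, -0.11 to 0.31 for Herc6, -0.22 to 0.11 for Trim25 and -0.28 to 0.76 for Usp18. Δβ against WT ran from -0.54 to 0.019 in SP and from -0.044 to 0.26 in BM for Trim25. The cause was not tested. Isg15 and Usp18 rest on 4 to 72 reads a library, and their genotype fold changes had standard errors of 0.69 and 0.76.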

Other observations

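Genes near Ube2l6 on chromosome 2 were listed with their values. Of 48 listed genes with a start within 1 Mb, 16 were tested and 0 were called in either organ, beside 0.105% of all tested genes in SP and 0.0697% in BM. The median Δβ against WT difference was 0.23 in SP and -0.071 in BM on the log2 scale. In SP all Δβ libraries lay above all WT libraries for Tfpi, Gm13710, Ctnnd1, Med19 and Timm10, and below them for Zdhhc5. In BM they lay above for Clp1. The share above over all tested genes was 7.92% in SP and 3.5% in BM. Of the neighbours 0 separated the genotypes in the same direction in both organs, beside 0.863% upward over all tested genes. The largest fold change among the tested neighbours was that of Prg2, which encodes the eosinophil major basic protein. It was at -3.48 (SE 2.36) in SP and -1.57 (SE 2.36) in BM, with overlapping genotypes. Gm13710, singled out after its values were seen, was at 2.12 (SE 0.87) and 2.22 (SE 0.87), with groups that overlapped in BM.

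Cwc22, a splicing factor gene 6.92 Mb from Ube2l6 on the same chromosome, had log2 fold changes of 3.89 (SE 0.11) in SP and 3.85 (SE 0.11) in BM. Unlike Ube2l6, it had nearly equal values in the Δβ BM libraries, with 6313, 6463 and 6717 normalized counts. The deviations of the 12 libraries from their group means had an r of -0.94 between the 2 genes, given as a description. In WT BM, replicate 2 had the highest Cwc22 value, at 527 beside 412 and 422 normalized counts. The same library had the lowest Ube2l6 value, with 12 reads. How far the r rests on this library was not tested.

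Genes of other ISG15-related roles were also listed. Itgal and Itgb2, whose products form the LFA-1 integrin that binds extracellular ISG15, had the largest mean fold changes among 11 tested genes of the wider ISG15 machinery. In SP Itgal had 22113, 11569 and 2538 normalized counts in WT replicates 1, 2 and 3, and 4495, 3591 and 4432 in the Δβ replicates. The WT range enclosed the Δβ values, and WT SP replicate 3 was the lowest of the 6 libraries. Of these 11 genes 0 were called, beside 0.105% of all tested genes in SP and 0.0697% in BM. The medians of the 11 were 0.03 in SP and 0.02 in BM. All Δβ libraries lay above all WT libraries for 3 of the 11 in SP (27.3%), beside 7.92% of all tested genes. In BM they lay above for 0 of the 11, beside 3.5%, and below for 1, beside 474 of the 11476 tested genes.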
